A study of Mus musculus with 4 samples.

Results

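At 215 mouse promoters, the summit of RFX2 occupancy in the testis lay at or downstream of the transcription start site (TSS), within the start of the gene. These peaks came from chromatin immunoprecipitation followed by sequencing (ChIP-seq) with an antibody against RFX2. The tissue was decapsulated testis of WT mice of a mixed C57BL/6, 129/Sv and FVB/N background, which the sample labels place at postnatal days 29 to 30. The text of the study instead describes dissociated germ cells of younger animals. There were 2 RFX2 libraries (replicates 1 and 2) and 2 input libraries without antibody, and no other genotype or treatment. No source used here states how many animals went into each library. Neither source sorts the germ cells by stage, so a peak cannot be assigned to spermatocytes or spermatids. The combined list, taken to be a call on the pooled reads of both replicates, held 2726 peaks.

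The peaks were selected on position. A peak had to overlap the promoter, from 1000 bp upstream to 500 bp downstream of the 5′-most TSS, of exactly 1 gene, with protein-coding and lncRNA genes both counted. That gene had to be protein-coding, and the summit, the base of highest coverage, had to lie at or downstream of its TSS. Of the 2726 peaks, 1764 met no promoter and 237 met the promoters of several genes. A further 118 met the promoter of a lncRNA gene alone. The remaining 607 met the promoter of 1 protein-coding gene, with 392 summits upstream of the TSS and 215 downstream. The 215 downstream-summit peaks belonged to 215 different genes, and none of these genes also had a summit-upstream peak. They amounted to 7.89% of the combined list and 35.4% of the single-gene promoter peaks, and marked 0.984% of the 21853 protein-coding genes. Position and peak scores come from the contrast that chose the peaks and are given as descriptions. Sequence was not used in the choice and was tested.

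RFX2 belongs to the RFX family of winged-helix transcription factors, which bind an imperfect inverted repeat named the X-box. RFX factors are known as regulators of genes for cilia, and the flagellum of a sperm cell is a modified motile cilium. Rfx2 is expressed in male germ cells from meiosis onward. Textbook promoters place factor sites ahead of the TSS, but many CpG island promoters start transcription at several positions and carry factor sites within the first exon as well.

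The X-box consensus was derived from the 1764 combined peaks outside promoters, so that no downstream-summit peak contributed to it. The 14-bp word GTTGCCATGGCAAC reads the same on both strands. A peak was scored as holding an X-box if a match with at most 3 mismatches lay within 100 bp of the summit. The matches of highly ranked peaks, of both perfect matches and of ciliary genes are shown here to let the sites be compared. Each line gives 30 bases of the GRCm38 genome in the sense of the gene, with the X-box in capitals.
Sema4b (chr7:80187139-80187168, + strand): gggagcctGTTGCCATGGCAGCgcaggagg
Ccdc181 (chr1:164275616-164275645, + strand): ggcgcgctGTTGCCATGGCACCcgggtgct
Mindy4 (chr6:55203407-55203436, + strand): atgccaccGTCGCCACGGCAACgccgcttt
Bbs1 (chr19:4906605-4906634, - strand): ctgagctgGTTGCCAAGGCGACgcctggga
Cfap161 (chr7:83794865-83794894, - strand): actgcctgGTCGTCATGGCAACgaagcacg
Arl6 (chr16:59639152-59639181, - strand): aagctcccGTTGCCAAGGGAACgccgcgcg
Tctn1 (chr5:122264403-122264432, - strand): ctgtgactGTTGCCCGGGCAACagacgggc
Tub (chr7:108950421-108950450, + strand): atggagcgGTTGCCATGGCAACgaggagca
Fxyd7 (chr7:31051077-31051106, - strand): gcggacagGTTGCCATGGCAACcgggtgcc
Syt5 (chr7:4546703-4546732, - strand): tccctcccGTTGCCTTGGCAACaggctcgt
Counted from the first capital, the Sema4b site differs from the consensus by A13G and that of Ccdc181 by A13C. Mindy4 has T3C and T8C, Bbs1 has T8A and A12G, and Arl6 has T8A and C11G. The sites of Tub and Fxyd7 were the only 2 perfect matches among the 215 peaks.

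A larger share of the downstream-summit peaks held an X-box at the summit than in neighbouring sequence. The X-box was present in 130 of 215 peaks (60.5%, 95% Wilson interval 53.8 to 66.8), against 3 of 215 (1.40%) in windows 1000 bp further into the gene. It was in the summit window but not in the further window for 127 peaks, and in the further window alone for 0 (p = 1.18e-38, exact McNemar test, two-sided). Across the whole combined list the share was 75.4%, and in the first 200 bp of all protein-coding genes it was 1.49%. The combined list includes the 1764 peaks that gave the consensus, so its share is not independent of the motif. The interval covers counting error only. With either replicate list alone and centres in place of summits, the share was 30.4% without replicate 2 and 31.9% without replicate 1. The replicate lists are much longer than the combined list of 2726 peaks, with 39825 peaks in replicate 1 and 21274 in replicate 2. List length therefore changed along with the replicate.

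In the combined list, no difference from promoter peaks with the summit on the other side of the TSS was detected at up to 3 mismatches. Among the 392 summit-upstream peaks, 215 (54.8%) held an X-box, a difference of 5.62 percentage points (95% Newcombe interval -2.63 to 13.6, p = 0.199, Fisher's exact test, two-sided). The result depended on the mismatches allowed and on the list. By the same exact test, at most 4 mismatches gave a difference of 12.5 percentage points (p = 0.000486), whereas at most 2 gave 2.62 (p = 0.524). With 1 replicate list alone and centres in place of summits, it was 8.78 without replicate 2 (p = 0.000319, exact test) and 2.53 without replicate 1 (p = 0.37, exact test).

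X-boxes were searched within 100 bp of the summit, so their position in the gene follows that of the summit by construction. Within this window, the middle of the X-box lay a median of 7.5 bp from the summit, and within 20 bp of it in 103 of the 130 peaks (79.2%). Relative to the TSS it ranged from -49 to 823 bp, with a median of 113 bp, and it was downstream of the TSS in 121 of 130 peaks. By annotation, 74 X-boxes lay in untranslated exon sequence, 34 in introns, 13 in coding exons and 9 upstream of the TSS. The share with an X-box was 58.3% for summits under 50 bp from the TSS, 59.6% from 50 to 200 bp, 61.5% from 200 to 500 bp and 65.6% beyond 500 bp.

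**Figure D1:**
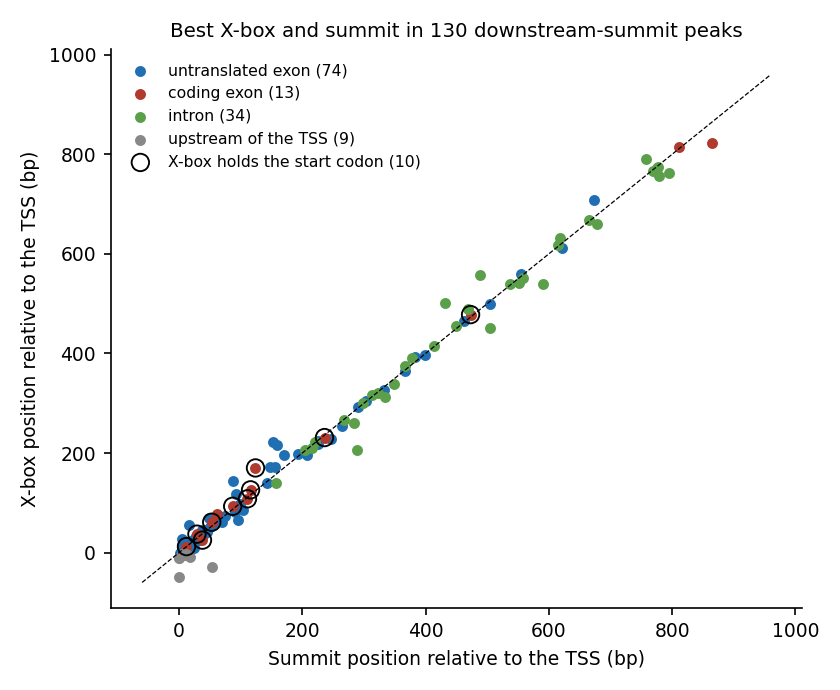
Position of the best X-box (vertical axis, bp from the TSS) against the position of the summit (horizontal axis, bp from the TSS) in the 130 downstream-summit peaks with an X-box, coloured by annotation. The dashed line marks equal positions, to which the search window of 100 bp binds the points, and black rings mark the 10 X-boxes that hold the start codon of the gene.

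The matches varied most in the right-hand half-site. Of the 215 peaks, 2 had no mismatch, 15 had 1, 55 had 2 and 58 had 3. Another 51 had 4 mismatches, 24 had 5, 9 had 6 and 1 had 7, so that all but 34 peaks came within 4 mismatches of the consensus. Among 129 X-boxes read in the sense of the gene, base 11 differed from the consensus in 35.7%, base 12 in 31.8%, and bases 4 and 7 in 26.4% each. Bases 1, 2 and 14 differed least, in 1.55%, 4.65% and 5.43%. Fewer mismatches were in the first half-site for 60 peaks, in the second for 43, and 27 had as many in both. In the summit-upstream peaks these numbers were 99, 75 and 41 of 215. The most frequent variant was GTTGCCATGGAGAC, found in 5 peaks, among them Zfat and Map1a.

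In 10 peaks the annotated start codon of the gene was part of the X-box. The middle of the consensus, at bases 7 to 9, spells ATG within the wider context that translation start sites also favour. Among the 129 X-boxes read in the sense of the gene, 68 had ATG at these bases. For 10 of the 130 peaks with an X-box (7.69%, 95% Wilson interval 4.23 to 13.6) that ATG was the start codon of a protein-coding transcript of the gene. These genes were named after their values were seen, and all 10 sites are shown because the coincidence can be read directly in the sequence, with base 7 of the capitals as the first base of the codon.
Wdr34 (chr2:30048854-30048883, - strand): gcgggaccGTCGCCATGGCAATgtgcgcgt
Dalrd3 (chr9:108569897-108569926, + strand): gtcttccgGTCGCCATGGCGACcgggcgcc
Eri3 (chr4:117550582-117550611, + strand): gagggggcGTTGCCATGGCGACagcctctc
Dnajb2 (chr1:75236870-75236899, + strand): gacgctgaGTTGCCATGGCATCctactacg
Dhx16 (chr17:35879898-35879927, + strand): caggacgcGTCGCCATGGCGACgccggcgg
Fam151b (chr13:92483937-92483966, - strand): gtctgtctGTCACCATGGCAGCatgtgcag
Dlec1 (chr9:119102501-119102530, + strand): gcgtctctGTTGCCATGGATTCcgagagca
Ap2s1 (chr7:16738522-16738551, + strand): agacagggGTCGCCATGGTAACggggggag
4833427G06Rik (chr9:51101955-51101984, - strand): cgtcctgaGTCACCATGGAAACggggccca
Zfat (chr15:68258671-68258700, - strand): gtgggggcGTTGCCATGGAGACgcggacgg
Dhx16 and Dalrd3, which encode a DEAH-box RNA helicase and a protein with an anticodon-binding domain, carry the same 14 bases with T3C and A12G. The start codon lay 12 bp from the TSS in Wdr34, which encodes an intermediate chain of the dynein-2 motor, and 478 bp from it in Dnajb2, which encodes a J-domain co-chaperone. The other 8 codons lay between these positions. The summit lay on the first base of the codon in Wdr34 and 46 bp from it in Zfat, the largest distance of the 10. Map1a, which encodes a microtubule-associated protein, had a site of this kind 35 bp from the TSS besides its chosen X-box at 77 bp.

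Scores at these 10 start codons were moderate. In the combined list -log10 p ran from 52.0 for Zfat to 125 for Wdr34. In replicate 1 the scores ran from 40.8 for Dlec1 to 119 for Wdr34, and in replicate 2 from 14.3 for Ap2s1 to 92.0 for Dalrd3. For comparison, an X-box of at most 3 mismatches was centred on a start codon in 191 protein-coding genes (0.886% of those with an annotated ATG), and 23 of these codons lay in a combined peak. By mismatches, 6 of 11 sites with 1 mismatch, 11 of 29 with 2 and 6 of 151 with 3 were in a peak. Some of these codons lie far into the gene, and within the first 500 bp the numbers were 4 of 5, 9 of 19 and 6 of 81. Among all X-boxes in the first 500 bp of protein-coding genes, start codon or not, they were 12 of 20, 69 of 130 and 84 of 508.

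Summits were concentrated just inside the TSS and thinned out over the first kilobase. A peak had to overlap the promoter, which ended 500 bp downstream of the TSS, so the rule itself limited the summits further in. The distance from the TSS ran from 0 to 950 bp with a median of 99 bp and quartiles of 19 and 344 bp. It was under 50 bp in 84 peaks, 50 to 200 bp in 47, 200 to 500 bp in 52 and 500 bp or more in 32. In the plot of summit positions, the counts on both sides of the TSS join without a gap. Of 5 summits at 0 bp, just inside the limit, the 3 with the highest -log10 p were those of Map9, Spag6l and 1700021F07Rik, and the 3 just outside were Cfap221 at -1 bp and Dpy19l2 and Lsm10 at -3 bp. Within 10 bp of the TSS there were 28 downstream-summit and 23 summit-upstream peaks, so for these the side rests on a few bases.

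**Figure D2:**
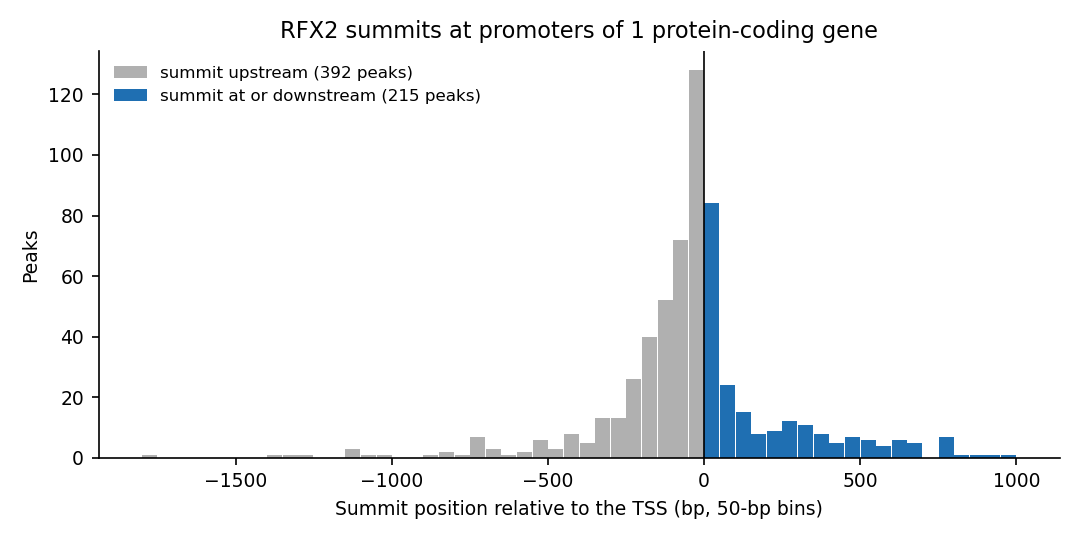
Number of single-gene promoter peaks (vertical axis) by position of the summit relative to the TSS (horizontal axis, bp, bins of 50 bp), with the 215 downstream-summit peaks in blue and the 392 summit-upstream peaks in grey. The 84 blue peaks of the first bin stand beside 128 grey peaks of the bin before the TSS.

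Over all protein-coding transcripts of the gene, 148 summits lay in untranslated exon sequence (68.8%), 55 in introns (25.6%) and 12 in coding exons (5.58%). In 178 peaks the summit came before the start codon of the 5′-most transcript, and in 37 after it. The 5 summits furthest into the gene were those of Ptdss2 (950 bp), Lin7c (905), Syt5 (864), Crip1 (812) and Plch1 (795). All are counted from the 5′-most TSS. Another protein-coding TSS lay 80 bp downstream of the summit in Ptdss2, 110 bp in Syt5, 2495 bp in Crip1 and 47318 bp in Plch1. Lin7c had none. Ptdss2 encodes a phosphatidylserine synthase and Lin7c a PDZ-domain scaffold protein, and neither peak had an X-box. Syt5, which encodes a synaptotagmin, had an X-box with 1 mismatch at 823 bp, within a coding exon of another transcript. The 5′-most transcript places the summit in an intron, before its start codon at 1230 bp.

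The side of the TSS depended on which start of the gene was taken. Another protein-coding TSS of the same gene lay at or downstream of the summit in 121 of 215 peaks (56.3%), and in 175 (81.4%) if all transcripts of the gene were counted. Conversely, 94 summits were downstream of every protein-coding TSS of the gene, and 63 of these peaks (67.0%) held an X-box, against 67 of the other 121 (55.4%). The summit was at or downstream of the RefSeq start of the gene in 191 of 215 peaks (88.8%), compared with 108 of 389 summit-upstream peaks (27.8%). It was downstream of every protein-coding GENCODE TSS and also at or downstream of the RefSeq gene start in 86 peaks. Cfap161 illustrates the dependence, since its summit lay 13 bp into the GENCODE model but 3158 bp downstream of the RefSeq start. For Ptdss2, with the most distant summit, the RefSeq start was 61 bp downstream of the summit. For Crip1 it was 2495 bp downstream, while for Lin7c, Syt5 and Plch1 it was upstream.

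Both replicates met all 215 peaks (100%), as they did 100% and 99.9% of the whole combined list. The combined list shares its reads with the replicate lists, so this is not an independent replication. It may also have been restricted by the authors to peaks reproduced in both replicates. The study's methods describe relaxed calls per replicate, followed by a filter for reproducible peaks that left nearly as many peaks as the combined list holds. Whether the combined list is the outcome of that filter is not stated. The replicate lists are also much longer, with 39825 and 21274 peaks, so overlap with them is a weak requirement. Replicate scores ran from 22.6 to 371 in replicate 1, with a median of 70.7, and from 7.53 to 217 in replicate 2, with a median of 35.9. Each score is on a -log10 scale, and whether it stands for a p or a q is not stated. The score was higher in replicate 1 in 204 of 215 peaks, with a median ratio of 2.03, and Spearman's rho between the scores was 0.752, a description over 215 peaks of 2 libraries. Dyx1c1, with scores of 26.5 and 35.3, was among the 11 peaks that were higher in replicate 2.

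**Figure D3:**
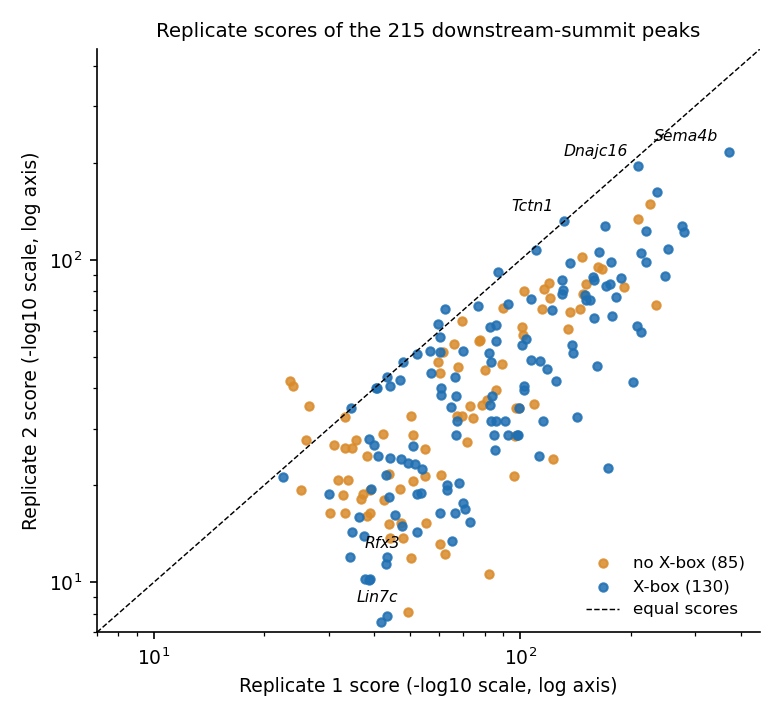
Score of each of the 215 downstream-summit peaks in replicate 1 (horizontal axis) and replicate 2 (vertical axis), both on a -log10 scale and drawn on log axes. Blue points hold an X-box and orange points do not, the dashed line marks equal scores, and 204 of the 215 points lie below it.

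The replicate lists give no summits, so their peak centres were compared instead. The centre was downstream of the TSS in 158 peaks (73.5%) in replicate 1, in 169 (78.6%) in replicate 2, and in 142 (66.0%) in both. In 30 peaks neither centre was downstream, which shows that the summit and the centre of a peak could fall on different sides. Bbs4, Wdr34, Wdr60 and Tub were among these 30. Among the summit-upstream peaks both centres were downstream in 13 of 392 (3.32%). The centres of the 2 replicates differed by a median of 56 bp.

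In the combined list the downstream-summit peaks spanned -log10 p values from 44.0 to 392 with a median of 99.7, compared with medians of 112 for summit-upstream peaks and 82.1 for all combined peaks. Their fold enrichment over the local background had a median of 14.1 and spanned 5.92 to 42.0, beside medians of 15.1 and 17.0. There were 11 downstream-summit peaks among the 100 highest of the combined list, beside a share of 7.89% in the whole list. The share with an X-box was 71.0% (49 of 69) for those in the highest quartile of scores of the combined list, then 63.1%, 57.1% and 41.0% (16 of 39) in the lowest quartile. Summit-upstream peaks showed the same order, with 67.1%, 59.8%, 40.0% and 34.3%.

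The highest peak was that of Sema4b, which encodes a transmembrane semaphorin. Its -log10 p was 392 in the combined list, and its scores were 371 in replicate 1 and 217 in replicate 2, rank 4 in each. The summit lay 334 bp downstream of the TSS, in an intron, and the peak centre lay downstream in both replicates. Ccdc181, which encodes a coiled-coil protein of the sperm flagellum, followed with a -log10 p of 328 and scores of 279 and 122. Its summit, 45 bp from its single annotated TSS, coincided with the X-box printed above. Mindy4, which encodes a deubiquitinase, had a -log10 p of 321 with scores of 236 and 162.

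Katnal2, which encodes a katanin-like protein needed for shaping of the sperm head, had a -log10 p of 320 and scores of 276 and 127. Its summit was in an intron, 221 bp from the TSS and downstream of all 6 annotated starts. Bbs1, a BBSome subunit, had 304 with scores of 253 and 108, and its X-box stood 8 bp after the TSS. Josd2 (303), Dnajc16 (277), Cfap161 (276), Ccdc113 (273) and 1700030J22Rik (271) completed the 10 highest. Of these 10, all except Josd2 and 1700030J22Rik held an X-box, and these exceptions came within 4 mismatches of it. Cfap161 had the highest fold enrichment of the 215 peaks, at 42.0.

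High scores also occurred where no X-box was found. The highest peaks with no match within 4 mismatches anywhere in the peak were those of Fanci (233), Psmc3ip (205) and Pcgf1 (169). Fanci encodes a protein of the Fanconi anaemia DNA repair pathway, Psmc3ip a cofactor of meiotic recombination and Pcgf1 a Polycomb ring finger protein. For Fanci the scores were 192 in replicate 1 and 82.5 in replicate 2, with both centres downstream of the TSS. Peaks with an X-box had a median -log10 p of 107, and those without one 88.1. The 2 perfect X-boxes belonged to peaks of middle rank, with a -log10 p of 161 for Tub, which encodes the tubby protein, and 81.7 for Fxyd7, which encodes a regulator of the sodium pump.

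Genes for cilia, flagella and steps of sperm formation were described by 19 lists holding 342 protein-coding genes. Of these, 45 (13.2%) had a downstream-summit peak, beside 0.984% of all protein-coding genes. Another 39 list genes had a summit-upstream peak, 40 had a peak shared with another promoter, and 218 had no combined peak at the promoter. The lists were chosen with earlier results of these data known, so these shares are descriptions. The 45 list genes had summits a median of 28 bp from the TSS and a median -log10 p of 112, while the other 170 had 148 bp and 95.3. In the bar plot of the lists, downstream-summit peaks appear in 15 of the 19.

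**Figure D4:**
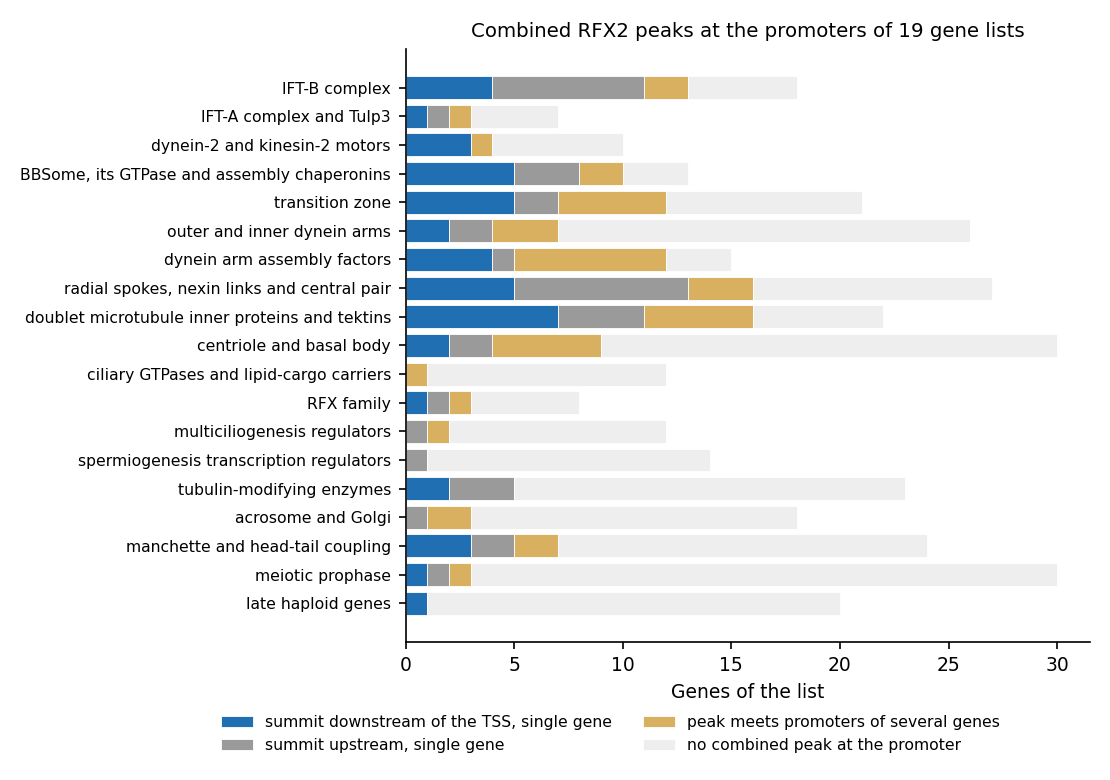
Number of genes of each of 19 lists (horizontal axis) by the combined peak at the promoter, with downstream-summit peaks in blue, summit-upstream peaks in dark grey, peaks shared by several promoters in ochre and no peak in light grey. The BBSome list has 5 of 13 genes in blue, and the acrosome list has 0 of 18.

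Intraflagellar transport (IFT), which builds the axoneme, was represented in IFT-B, IFT-A and dynein-2 but not in kinesin-2. IFT-B, which carries cargo toward the ciliary tip, had 4 of 18 genes (Ttc26, Ttc30b, Ift172 and Ttc30a1), with 7 more carrying a summit-upstream peak. Ttc26 was the highest, with a -log10 p of 218, scores of 158 and 88.7, and a summit 5 bp from the TSS. Ttc30a1 and Ttc30b are near-identical copies, and reads that mapped to several places had been discarded, so their heights of 44.0 and 104 are uncertain. IFT-A, which returns cargo to the base, had 1 of 7 genes, Wdr35. The motors had 3 of 10, all in dynein-2 (Tctex1d2, Wdr34 and Wdr60). Wdr60 stood 9 bp from its TSS with a -log10 p of 100, and its best match within 100 bp of the summit had 7 mismatches, the most of the 215 peaks.

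The BBSome moves membrane proteins in and out of cilia, and its list had the largest share, with 5 of 13 genes. Bbs1, Bbs4, Bbs5 and Bbs9 encode subunits, and Arl6 encodes the small GTPase that recruits the complex to membranes. The summits of the 4 subunit genes lay between 12 and 18 bp from the TSS. Their replicate centres were at 98 and 96 bp for Bbs5, 131 and -21 for Bbs1, -7 and 2 for Bbs9, and -168 and -80 for Bbs4. Arl6 stood at 226 bp from its 5′-most TSS with a -log10 p of 254, scores of 221 and 123, and both replicate centres more than 300 bp downstream. Its summit was nevertheless only 2 bp downstream of another protein-coding TSS of the gene, and a further TSS lay 36 bp beyond the summit. Bbs9 was the lowest, with a -log10 p of 60.3 and scores of 35.6 and 27.7.

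The transition zone is the gate at the ciliary base, and 5 of its 21 genes were present. Tctn1 had a -log10 p of 221 and nearly equal scores of 131 and 132. B9d2 had 210, Tmem17 119, Tmem216 52.9 and Tmem231 46.2. The summits of Tmem17 and Tmem216, at 333 and 504 bp, were the most distant of this list, and each X-box lay within 10 bp of them. The centriole list had 2 of 30 genes, Deup1 and Ccp110, and the list of ciliary GTPases and lipid-cargo carriers had 0 of 12.

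Genes for axonemal structure were present in larger number than those for the dynein arms themselves. The microtubule inner proteins and tektins, which line the doublet microtubules, had 7 of 22 genes, among them Cfap161, Tekt1, Spag8, Tekt4, Cfap53 and Cfap45. Counted from the 5′-most TSS, Tekt1 stood apart with its summit at 558 bp, in an intron, and the others named here lay between 2 and 74 bp. However, another protein-coding TSS of Tekt1 lay 11 bp downstream of that summit. Radial spokes, nexin links and the central pair had 5 of 27 (Rsph1, Spef2, Spag6l, Cfap46 and Drc7), with heights from 63.5 for Drc7 to 227 for Rsph1. The dynein arms, which drive beating, had 2 of 26 (Ttc25 and Dnah11). Factors for placing and preassembling those arms had 4 of 15. Ccdc39, which encodes part of the ruler that spaces the arms, and Lrrc6 had 229 each, Zmynd10 had 71.4 and Dyx1c1 had 60.8. Summit-upstream peaks were found at 4 genes of the inner protein and tektin list, 8 of the radial spoke list, 2 of the dynein arm list and 1 of the assembly factor list. The larger number for axonemal structure than for dynein arms was thus not particular to downstream summits. None of these counts was tested against another.

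The lists of regulators and of later steps of sperm formation had from 0% to 12.5% of their genes with a downstream-summit peak, beside 0.984% of all protein-coding genes. Rfx3, which encodes another RFX factor of ciliated cells, was the single RFX family member of 8, with a -log10 p of 54.6, scores of 50.3 and 11.9, and a summit 91 bp from its TSS. There were 0 of 12 multiciliogenesis regulators, 0 of 14 spermiogenesis transcription regulators and 0 of 18 acrosome genes. The manchette list had 3 of 24 (Katnal2, Spef2 and Spata6), and the tubulin-modifying enzymes had 2 of 23. These were Ttll9 (211) and Agbl4 (127), which encode a tubulin ligase-like enzyme and a carboxypeptidase. Meiotic prophase had 1 of 30, Syce3 of the synaptonemal complex (53.6), and late haploid genes had 1 of 20, Odf2 of the outer dense fibres (58.5).

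No difference in CpG-rich sequence was detected between downstream and upstream summits. CpG-rich sequence (at least 50% G+C and an observed over expected CpG ratio of at least 0.6) was found in 144 of 215 windows (67.0%) and in 244 of 392 summit-upstream windows (62.2%). The difference was 4.73 percentage points (95% interval -3.29 to 12.4, p = 0.252, Fisher's exact test). In the first 200 bp of all protein-coding genes the share was 50%. Within the downstream-summit peaks it was 63 of 84 for summits under 50 bp from the TSS and 14 of 32 (43.8%) beyond 500 bp. A window at the peak centre gave a difference of 13.7 percentage points (p = 0.00146, Fisher's exact test). With 1 replicate list alone, centres stand in for summits and the list is much longer. The difference was then 17.1 without replicate 2 (p = 2.78e-10, exact test) and 18.5 without replicate 1 (p = 3.44e-10, exact test). The call therefore depended on the list and the window.

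Of 6 other motifs searched on both strands in 200 bp around the summit, with X-boxes masked, 1 differed between downstream and upstream summits. CCAAT, the NF-Y box, was in 51 of 215 downstream-summit windows (23.7%) and in 151 of 392 upstream ones (38.5%). The difference was -14.8 percentage points (95% interval -21.9 to -7.10, Fisher's exact test, p = 0.00129 after Benjamini-Hochberg adjustment over the 6 motifs). In all protein-coding genes CCAAT was present in 16.6% of windows from the TSS to 200 bp downstream and in 31.7% of those from 200 bp upstream to the TSS. In a fixed window of 200 bp upstream of the TSS, chosen after the data were seen, it was present at 36.3% of the downstream-summit genes and 40.3% of the others (adjusted p = 0.408, exact test). In 200 bp downstream of the TSS the shares were 18.6% and 14.8% (adjusted p = 0.373, exact test). The position of the window relative to the TSS therefore moved with this difference, and its part was not tested further.

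The other 5 motifs did not pass the test, with adjusted p-values again taken over the 6 motifs. GGGCGG, the GC box, was in 44.7% of downstream-summit and 44.1% of upstream windows (adjusted p = 0.932, exact test), against 29.9% of all genes. CCGGAA, an ETS site, was in 23.7% and 21.9% (adjusted p = 0.920, exact test), against 11.3%. TGACGT, part of the CRE, was in 6.98% and 12.2% (adjusted p = 0.152, exact test), against 3.10%. CACGTG, an E-box, was in 6.51% and 9.95% (adjusted p = 0.354, exact test), against 3.18%. CAACNG, the MYB site, was in 43.7% and 42.6% (adjusted p = 0.932, exact test), against 23.7%. The windows of all genes were placed by the TSS and those of the peaks by the summit.

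**Figure D5:**
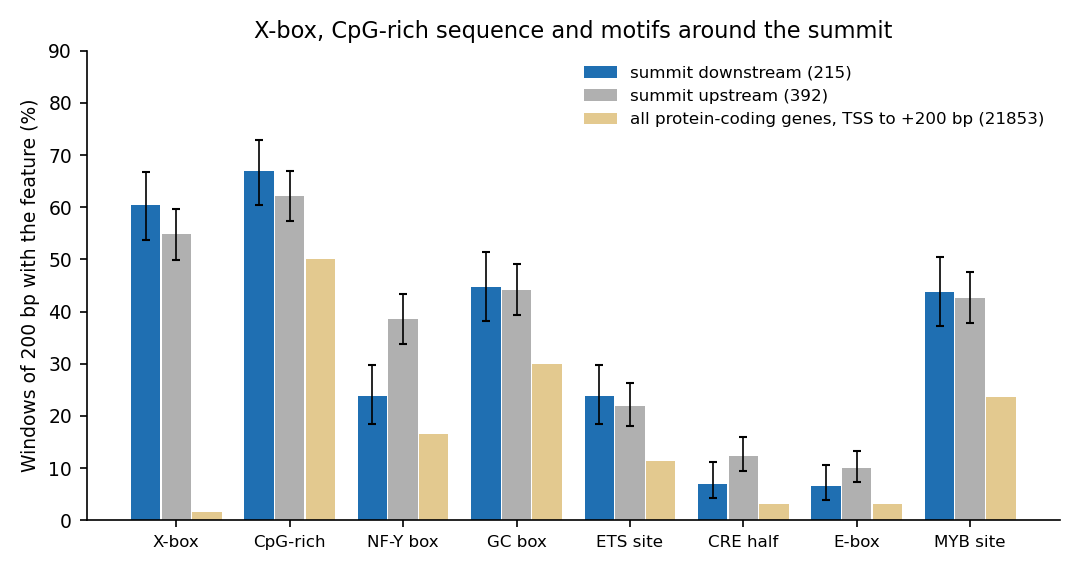
Share of 200-bp windows with an X-box, CpG-rich sequence or 1 of 6 other motifs (vertical axis, percent) around downstream summits, upstream summits and in the first 200 bp of all protein-coding genes. Bars start at 0 and error bars are 95% Wilson intervals, and the NF-Y box is the motif whose shares of 23.7% and 38.5% differed.

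A search over all 2080 6-mers found 0 words (0%) more frequent and 0 (0%) less frequent around downstream than around upstream summits by Fisher's exact test with Benjamini-Hochberg adjustment. At an unadjusted p under 0.05 there were 68 and 59 words. The smallest adjusted p was 0.0991, for AGCCAA, in 10.7% of downstream and 23.5% of upstream windows.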

How the data were processed

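RFX2 ChIP-seq of 2 replicates and 2 inputs was analysed from the deposited peak lists. Per the labels and the study's methods, the authors used CASAVA 1.8.2, Bowtie 0.12.7 and MACS2 2.0.10.20130520 on GRCm38 with Ensembl release 70. They discarded multi-mapping reads and removed human-mapping reads from a second run of replicate 2. Each replicate list deposited by the authors holds a single −log10 value for every peak. The deposited combined list gives −log10 p, −log10 q, a score and the fold enrichment, a ratio over local background. The lists give no read counts, so depth is unknown. That the combined list pools both replicates is inferred from its peak names. Inputs entered only through the authors' peak calls.

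TSS, exons and start codons came from GENCODE mouse release 21, and sequences and gene starts from RefSeq for GRCm38 patch 6. Analyses used Python 3.11.15, SciPy 1.17.1 and pysam 0.24.0. Motif searches and word tests were checked on simulated data. The named genes were the 10 highest peaks, the 5 furthest downstream, the 3 on either side of the limit, members of the gene lists, up to 10 with the fewest X-box mismatches, and the 3 highest with no match within 4 mismatches. The rule also covered peaks missed by a replicate and genes with several peaks, of which there were none. Not every gene it covers is described. The peaks, gene lists and tests were chosen with earlier results of these data known.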

Additional observations from a re-analysis of the deposited data

How the results depend on the processing

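The number of peaks was 134 in the top 50% of the combined list. It was 432 to 448 with either replicate list alone and centres in place of summits. The replicate lists hold 39825 and 21274 peaks, so list length changed along with the replicate. With 1 replicate alone, the X-box share was 30.4% to 31.9%. Its difference from summit-upstream peaks was then 2.53 to 8.78 percentage points (Fisher's exact test, p = 0.37 without replicate 1 and 0.000319 without replicate 2). The CpG-rich difference was 17.1 without replicate 2 (Fisher's exact test, p = 2.78e-10) and 18.5 without replicate 1 (Fisher's exact test, p = 3.44e-10). The X-box difference passed the test at most 4 mismatches (12.5) and the CpG-rich difference with windows at the peak centre (13.7). Replicate 2 met 88.4% of peaks at a reciprocal overlap of 50%, and counting all transcripts placed another TSS downstream in 81.4%. The other 33 alternatives kept the direction and, where there was a test, its side, although the X-box share was 33.5% at most 2 mismatches. The peaks themselves changed more than their number, since 155 of the 215 were shared with the RefSeq start and 158 with the side taken from the peak centre.

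Motifs past the threshold numbered 2 in 200 bp upstream of the TSS, 0 in 200 bp downstream and 0 for summits within 50 bp of the TSS. By Fisher's exact test, upstream of the TSS the differences turned to -10.6 for the GC box (adjusted p = 0.0403), -9.70 for the ETS site (adjusted p = 0.0345) and -5.57 for the MYB site. Downstream they turned to 3.81 for the NF-Y box, -2.05 for the GC box and 0.570 for the CRE part. Near the TSS they turned to -3.43 for the ETS site, 3.18 for the CRE part and -1.37 for the MYB site, and within 50 bp of the summit to -2.62 for the GC box and -3.63 for the ETS site. The NF-Y box gave -7.32 near the TSS (Fisher's exact test, adjusted p = 0.88). The causes were not tested. No paired analysis was possible because no test compared libraries.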
